A study of Homo sapiens with 3 samples.

Results

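The canonical Wnt pathway was followed here through 10 genes in a human hepatocellular carcinoma (HCC) line and 2 of its subclones. Wnt proteins bind a Frizzled receptor with LRP5 or LRP6 and stop the breakdown of β-catenin, which then enters the nucleus and turns on genes through TCF/LEF factors. Many of these target genes feed back on the pathway, so that their mRNA is widely read as its output. In the normal liver this output is strongest in the hepatocytes around the central vein, and HCC often carries mutations of β-catenin or AXIN1.

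The 10 genes were LGR5, LGR4, ZNRF3, RNF43, SOST, DKK1, AXIN2, NKD1, LEF1 and SP5, out of 16149 genes listed in at least 1 library. They were selected by gene symbol when the RPKM of these same libraries were already known, so their values are a description and were not tested. RPKM corrects the reads of a gene for transcript length and for sequencing depth. Of the 10 genes, 9 were listed in the parental line and 8 in each subclone, and a gene that a library did not list was taken as 0.

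The 3 libraries came from cultured cells, with 1 library each for the parental line and for each subclone. The labels name the line HCCLM3 throughout, which the study used in a form carrying red fluorescent protein. The labels give the parent a low ability to metastasize, subclone 1 a higher one directed to the lung, and subclone 2 a dual one, directed to lung and celiac lymph node. The study's text, by contrast, describes its parental line as one of high metastatic potential. The study grew its clones from single cells of metastases formed in nude mice, so each subclone stands for 1 clone, and which of those clones were sequenced is not named in the labels. Mutations of CTNNB1, APC or AXIN1 were not analysed here.

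The RPKM allowed whole reads to be read back, giving totals of 4488825 (parent), 4609696 (subclone 1) and 4725150 (subclone 2) reads. The parental total was searched within a fixed range, and the other totals follow from it. The intervals below are exact 95% intervals on these reads. They cover counting error only and compare libraries, because each line had 1 library. In bulk RNA, fewer cells with a transcript and less of it per cell cannot be told apart. The 10 hepatocyte markers summed to 2586, 2798 and 2890 RPKM in the order parent, subclone 1 and subclone 2. KRT8 and KRT18 made up nearly all of these sums, each with at least 953 RPKM in each library. TTR, SERPINA1 and APOA1 had at most 4 reads in any library, and APOB had 0.300, 1.23 and 4.17 RPKM. In the same order AFP had 22, 39 and 41 reads, HNF4A 170, 177 and 245, and FGB 27, 242 and 96. Albumin (ALB) was 2.46 RPKM in the parental line, 49.5 in subclone 1 and 68.8 in subclone 2. ALB thus moved opposite to LGR5, and its part in the results below was not tested. The 9 fibroblast markers summed to 28.7, 37.8 and 28.8 RPKM, with 3, 2 and 3 of them at 0 and 1, 1 and 0 reads of COL1A2. Within that list COL6A3 (618, 326 and 223 reads) and COL3A1 (109, 56 and 12 reads) were lower in the subclones, as LGR5 was, and LUM (48, 117 and 105 reads) and DCN (8, 47 and 30 reads) were higher. The 6 endothelial markers summed to 5.11, 11.9 and 7.60 RPKM, most of it from PECAM1 (34, 103 and 48 reads) and KDR (37, 54 and 88 reads), with at most 1 read of CDH5. The 7 leukocyte markers summed to 77.2, 115 and 102 RPKM, nearly all CD68, with 1, 0 and 0 reads of PTPRC. The part of these markers in the results was not tested. SOST is known best from osteocytes, and of 6 osteocyte markers PHEX had 25, 30 and 31 reads, while the other 5 had at most 1 read in any library.

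LGR5 and LGR4 are receptors for R-spondins, secreted proteins that strengthen the Wnt signal. LGR5 is also a Wnt target and marks stem cells of the gut. LGR5 mRNA was 8.66 RPKM in the parental line (6.54 to 11.3), 0.301 RPKM in subclone 1 (0.0365 to 1.09) and 0.147 RPKM in subclone 2 (0.00372 to 0.819). The parent stood apart, since neither subclone's interval reached that of the parent. LGR5 was 28.8-fold lower in subclone 1 than in the parental line (7.60 to 243) and 58.9-fold lower in subclone 2 (10.2 to 2369).
The RPKM of LGR5 stood in the ratio of 56, 2 and 1 reads, the smallest whole numbers that gave these values. These correspond to a length of 1440 bases, which no GENCODE transcript of LGR5 matched within 10%. At 3 times that length, 4320 bases, the reads were 168, 6 and 3, close to the longest transcript of 4611 bases. On these reads the intervals narrowed to 12.9 to 79.5 for subclone 1 and 19.8 to 289 for subclone 2. The wider intervals are those used throughout. The subclones could not be told apart at this depth, as the ratio of subclone 2 to subclone 1 was 0.488 with an interval from 0.00827 to 9.37.
LGR4, the broadly expressed relative of LGR5, went the other way. It had 19.9 RPKM in the parental line (18.1 to 21.8), 24.6 RPKM in subclone 1 (22.6 to 26.6) and 35.2 RPKM in subclone 2 (32.9 to 37.6). The 3 intervals did not overlap, and subclone 2 was 1.77-fold above the parent (1.58 to 1.98) and 1.43-fold above subclone 1 (1.29 to 1.59). The 2 R-spondin receptors were thus within a factor of 2.30 of each other in the parental line, while LGR4 exceeded LGR5 by a factor of 81.5 in subclone 1 and 239.5 in subclone 2, as ratios of RPKM. The factors of the subclones rest on 2 and 1 LGR5 reads, the smallest whole numbers, and the difference between them was not tested.

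**Figure D1:**
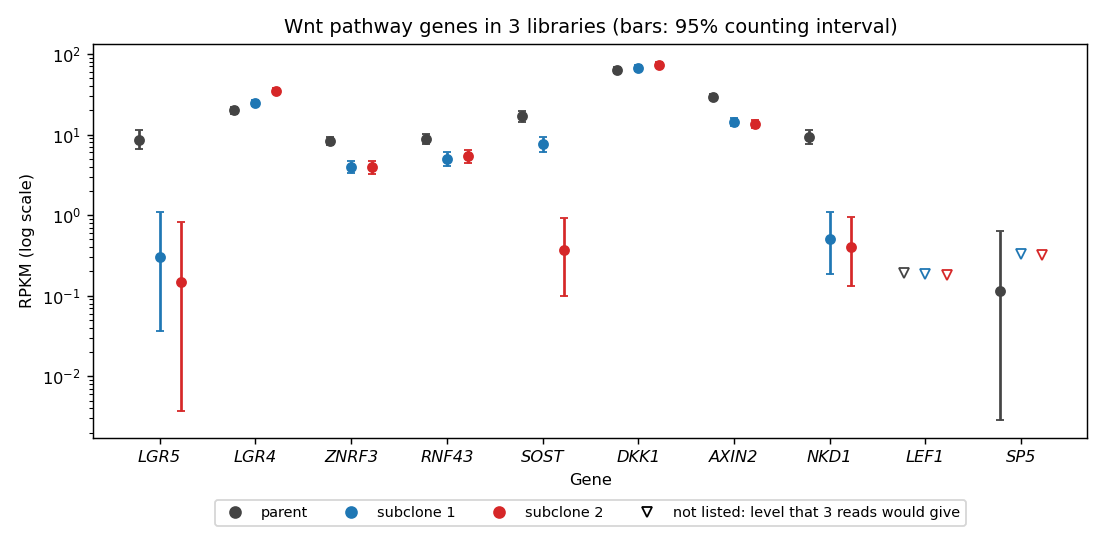
RPKM of the 10 genes in the parental line, subclone 1 and subclone 2 on a log scale, with exact 95% counting intervals as bars. Open triangles mark genes that a library did not list, at the level that 3 reads would give. LGR5 and NKD1 lie below 1 RPKM in both subclones, and SOST only in subclone 2.

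ZNRF3 and RNF43 are related membrane ubiquitin ligases that remove Frizzled from the cell surface, and R-spondins act by inhibiting them. Both are Wnt targets and form a negative feedback. ZNRF3 mRNA was 8.32 RPKM in the parental line (250 reads, 7.32 to 9.41), 3.98 RPKM in subclone 1 (123 reads, 3.31 to 4.75) and 3.92 RPKM in subclone 2 (124 reads, 3.26 to 4.67). RNF43 mRNA was 8.91 RPKM in the parental line (183 reads, 7.67 to 10.3), 4.98 RPKM in subclone 1 (105 reads, 4.07 to 6.03) and 5.41 RPKM in subclone 2 (117 reads, 4.48 to 6.49). For each ligase both subclones lay below the interval of the parent and within each other's. ZNRF3 was 2.09-fold lower than the parent in subclone 1 (1.68 to 2.61) and 2.12-fold lower in subclone 2 (1.70 to 2.65). RNF43 was 1.79-fold lower in subclone 1 (1.40 to 2.30) and 1.65-fold lower in subclone 2 (1.30 to 2.09).

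SOST encodes sclerostin and DKK1 encodes Dickkopf-1, secreted proteins that block the pathway by binding LRP5 and LRP6. SOST mRNA was 16.8 RPKM in the parental line (175 reads, 14.4 to 19.5), 7.57 RPKM in subclone 1 (81 reads, 6.01 to 9.41) and 0.365 RPKM in subclone 2 (4 reads, 0.0993 to 0.933). No interval of SOST met another, and subclone 2 was nearly without it. SOST was 2.22-fold lower in subclone 1 than in the parental line (1.70 to 2.92) and 46.1-fold lower in subclone 2 (17.7 to 171). Between the subclones it was 20.8-fold lower in subclone 2 (7.80 to 78.0).
DKK1 was the most abundant of the 10 genes in each library. It had 63.1 RPKM in the parental line (514 reads, 57.8 to 68.8), 66.3 RPKM in subclone 1 (555 reads, 60.9 to 72.1) and 73.8 RPKM in subclone 2 (633 reads, 68.2 to 79.8). The values lay close together. DKK1 was 1.05-fold the parent in subclone 1, with an interval from 0.931 to 1.19, and 1.17-fold in subclone 2 (1.04 to 1.32). The 2 antagonists thus differed in subclone 2, where SOST was low and DKK1 was not.

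AXIN2 is a scaffold of the complex that degrades β-catenin, and NKD1 binds Dishevelled. Both are feedback inhibitors inside the cell and among the most regular Wnt targets. AXIN2 mRNA was 29.05 RPKM in the parental line (553 reads, 26.7 to 31.6), 14.4 RPKM in subclone 1 (282 reads, 12.8 to 16.2) and 13.5 RPKM in subclone 2 (270 reads, 11.9 to 15.2). The subclones overlapped each other and stood at about the same distance below the parent, 2.01-fold in subclone 1 (1.74 to 2.33) and 2.16-fold in subclone 2 (1.86 to 2.50). NKD1 mRNA was 9.41 RPKM in the parental line (110 reads, 7.73 to 11.3), 0.500 RPKM in subclone 1 (6 reads, 0.183 to 1.09) and 0.406 RPKM in subclone 2 (5 reads, 0.132 to 0.948). NKD1 resembled LGR5 in being high in the parental line alone. The smallest length of NKD1, 2604 bases, also matched no transcript within 10%, so its reads may be more. It was 18.8-fold lower than the parent in subclone 1 (8.38 to 52.4) and 23.2-fold lower in subclone 2 (9.63 to 72.7).

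LEF1 and SP5 are transcription factors that are themselves Wnt targets. LEF1 was listed in none of the libraries. For its longest GENCODE transcript of 3477 bases, 3 reads would be 0.192 RPKM in the parental line, the floor used here for a gene that was not listed. SP5 had 1 read in the parental line, 0.113 RPKM, and was not listed in the subclones, where 3 reads would be 0.332 and 0.323 RPKM. Neither gene had more than 3 reads, so no ratio is given for them.

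The promoters of the 10 genes were searched for the core of the TCF/LEF binding sequence, CTTTGAT or CTTTGAA on either strand, from 250 bases before to 50 bases after the start. RefSeq promoters (GRCh38.p14) were found for 6 genes, namely LGR4, RNF43, SOST, DKK1, LEF1 and SP5, and not for LGR5, ZNRF3, AXIN2 and NKD1. The letters occurred in 2 of the 6, in SP5 at 3 places and in DKK1 at 1 place, against 6.98% of 27305 promoters and 3.72% of the 8090 promoters of genes with a mean of at least 1 RPKM. SP5 and LEF1 were below that mean. Of LGR4, RNF43, SOST and DKK1, which were above it, only DKK1 held the letters. The 250 bases before the start are shown for SP5 and DKK1, which hold the letters, and for SOST, which separated the subclones. SP5 had the lowest and DKK1 the highest level of the members listed in any library. Capitals mark the searched letters.
SP5, chr2:170715087-170715336, plus strand: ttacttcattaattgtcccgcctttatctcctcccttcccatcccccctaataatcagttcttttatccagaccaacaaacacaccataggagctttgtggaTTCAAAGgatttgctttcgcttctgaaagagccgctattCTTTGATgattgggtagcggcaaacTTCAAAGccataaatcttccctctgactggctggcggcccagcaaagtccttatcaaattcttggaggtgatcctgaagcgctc
DKK1, chr10:52314031-52314280, plus strand: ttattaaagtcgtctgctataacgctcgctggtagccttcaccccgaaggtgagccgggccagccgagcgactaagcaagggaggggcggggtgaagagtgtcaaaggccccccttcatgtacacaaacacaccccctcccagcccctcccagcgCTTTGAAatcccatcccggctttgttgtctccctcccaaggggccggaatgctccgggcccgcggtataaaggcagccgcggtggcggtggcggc
SOST, chr17:43758792-43759041, minus strand: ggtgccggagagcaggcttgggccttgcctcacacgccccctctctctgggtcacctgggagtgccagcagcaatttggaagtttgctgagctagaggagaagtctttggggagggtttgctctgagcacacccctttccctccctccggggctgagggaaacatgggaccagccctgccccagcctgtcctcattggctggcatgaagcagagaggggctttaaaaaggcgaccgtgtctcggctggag
The match in DKK1 began 95 bases before the start, and those in SP5 began 148, 109 and 84 bases before it. The gene with 3 matches had 1 read in the 3 libraries together, and the gene with 1 match was the most abundant. The SOST window held none, which says only that these letters are not in it.

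The members were then set beside all genes. The scale for this was log2 of the quotient of 2 RPKM after 0.1 had been added to each, a scale that understates ratios of low genes, and the background was the 11370 genes with a mean of at least 1 RPKM over the 3 libraries. In subclone 1 over the parent, 5 of the 8 genes with a ratio were at least 2-fold lower (LGR5, NKD1, SOST, ZNRF3 and AXIN2), against 1.82% of all genes, and 0 were at least 2-fold higher, against 4.90%. LGR5 had a ratio only through its parental reads, and LGR5 and NKD1 reached a mean of 1 RPKM only through the parental line. In both comparisons with the parent these 2 genes could therefore count only as lower. AXIN2 lay at the edge of this count with a log2 ratio of -1.005, and RNF43 was outside it at -0.83. The median log2 ratio of the 8 genes was -1.02, beside 0.0043 for all genes.
In subclone 2 over the parent, 5 of the 8 were again at least 2-fold lower, against 2.16% of all genes, and 0 were higher, against 5.33%. Their median log2 ratio was -1.08, beside 0.037 for all genes. In this comparison ZNRF3 was nearest the threshold inside it, at a log2 ratio of -1.07, and RNF43 outside it, at -0.71. The 2 comparisons share the parent library, so that a value particular to that library would appear in both.
In subclone 2 over subclone 1, which does not use the parent, 1 of the 8 (SOST) was at least 2-fold lower, against 1.39% of all genes, and 0 were higher, against 1.42%. Without the added 0.1, LGR5 would join it, at 0.488 times subclone 1 on 1 and 2 reads. The median log2 ratio was -0.06, beside 0.034 for all genes. SOST (-4.04) and LGR4 (0.52) were the genes whose interval excluded equal levels, and the wide intervals of LGR5 and NKD1 left differences of several fold undetectable.

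**Figure D2:**
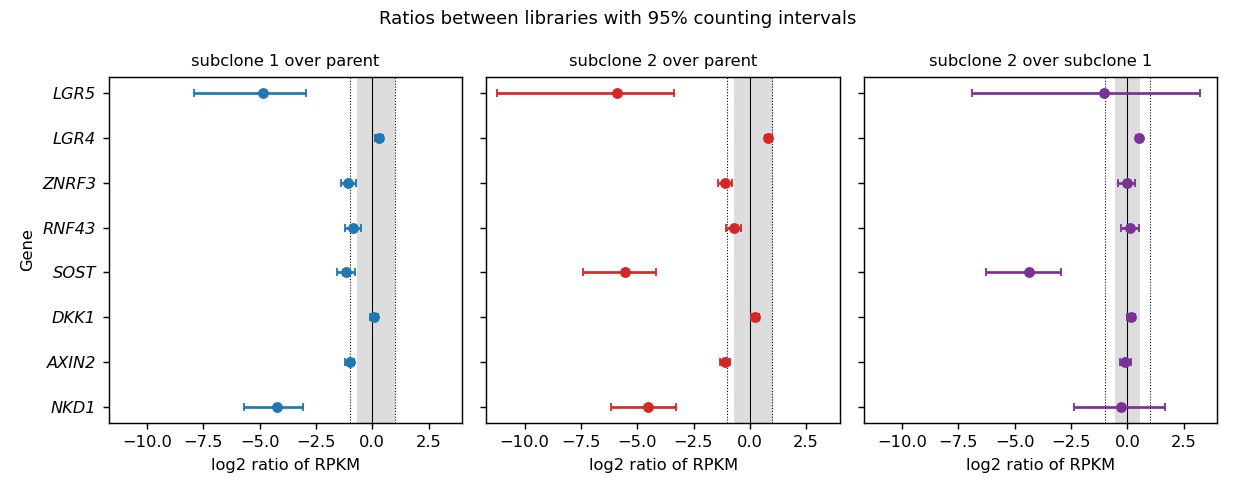
Log2 ratios of RPKM (no pseudocount) between libraries for the 8 genes with more than 3 reads in some library, with exact 95% counting intervals. Dotted lines mark 2-fold, and the grey band holds the middle 90% of all genes on the scale with 0.1 added. LGR5 and NKD1 lie far to the left in both panels over the parent. SOST does so in subclone 2 over the parent, and it alone in subclone 2 over subclone 1.

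The order of the levels changed with these differences. In the parent, DKK1 was followed by AXIN2, LGR4, SOST, NKD1, RNF43, LGR5 and ZNRF3 in RPKM, where LGR4 and SOST did not differ beyond counting error, nor did neighbours among the last 4. In subclone 1 the order was DKK1, LGR4, AXIN2, SOST, RNF43, ZNRF3, NKD1 and LGR5, and the pairs RNF43 with ZNRF3 and NKD1 with LGR5 could not be separated. In subclone 2 it was DKK1, LGR4, AXIN2, RNF43, ZNRF3, NKD1, SOST and LGR5, and neighbours among the last 3 could not be separated. LGR4 was above AXIN2 in the subclones and below it in the parental line. NKD1 was at percentile 58.2 of the genes listed in the parental line and at 17.7 and 16.6 in the subclones, while DKK1 was at 92.3, 93.0 and 93.6.

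The rest of the pathway was examined in lists by role, 116 genes in all, of which 58 had a mean of at least 1 RPKM. Of these 58, 3 were at least 2-fold lower and 1 higher in subclone 1 than in the parental line, and 5 were lower and 1 higher in subclone 2. These are 5.17% and 8.62% lower, beside 1.82% and 2.16% of all genes, and 1.72% higher in each, beside 4.90% and 5.33%. Their median log2 ratios were 0.060 and 0.047. Of the 9 measured receptors and co-receptors, 0 differed 2-fold from the parent in either subclone, which for 9 genes is near the shares of all genes.
Among ligands, WNT5A, which mainly signals without β-catenin, had 20.01 RPKM in the parental line (526 reads), 7.37 RPKM in subclone 1 (199 reads) and 3.25 RPKM in subclone 2 (90 reads). It was lower in subclone 1 and lowest in subclone 2, as SOST was, at 0.368 times the parent in subclone 1 (0.311 to 0.434) and 0.163 times in subclone 2 (0.129 to 0.204). Of the 4 R-spondins and LGR6, only RSPO3 was listed, with 2 reads in the parental line, 16 in subclone 1 and 0 in subclone 2. It was named after its values were seen.
Among 5 measured extracellular antagonists, SERPINF1, known best as an inhibitor of vessel growth, was higher in the subclones. Its levels were 11.2, 41.5 and 43.4 RPKM in the order parent, subclone 1 and subclone 2, or 3.71-fold (2.88 to 4.82) and 3.87-fold (3.01 to 5.03) the parent. NOTUM, an enzyme that strips the lipid from Wnt proteins and a target in liver tumours, had 2.25, 1.52 and 1.02 RPKM in that order. Its 23, 16 and 11 reads gave a ratio of 0.454 for subclone 2 over the parent (0.200 to 0.970), and an interval that included equal levels for subclone 1 (0.334 to 1.34). KREMEN1, a receptor for Dickkopf proteins, had 1.85, 3.07 and 1.41 RPKM, and was 0.460 times as high in subclone 2 as in subclone 1 (0.309 to 0.674).
The 14 measured genes of the destruction complex and Dishevelled held 0 with a 2-fold change over the parent. Among all genes, 4.90% were higher and 1.82% lower in subclone 1, and 5.33% and 2.16% in subclone 2. For 14 genes, a count of 0 is near these shares. CTNNB1, which encodes β-catenin, had 109 RPKM in the parental line, 72.1 in subclone 1 and 84.8 in subclone 2, so that the subclones were at 0.658 (0.594 to 0.730) and 0.774 (0.702 to 0.854) times the parent. AXIN1, the constant counterpart of AXIN2, had 16.6, 13.4 and 15.8 RPKM, and APC had 3.82, 3.16 and 2.42 RPKM. AXIN1 was thus near the parent's level, at 0.807 (0.674 to 0.965) and 0.953 (0.804 to 1.13) times, where AXIN2 was at 0.497 (0.429 to 0.574) and 0.464 (0.400 to 0.537) times.
TCF7, a TCF factor that is also a target, was the 1 of 8 measured nuclear partners with a 2-fold change, in subclone 2 over the parent. In that comparison 5.33% of all genes were higher and 2.16% lower, so 1 of 8 is near these shares. It had 18.0 RPKM in the parental line, 10.6 RPKM in subclone 1 and 8.47 RPKM in subclone 2, or 0.592 (0.484 to 0.722) and 0.471 (0.380 to 0.583) times the parent. TCF7L2 had 14.6, 16.4 and 19.1 RPKM, and TCF7L1 had 4, 4 and 9 reads. TCF7 was thus the 1 of these 3 that was lower in both subclones beyond counting error.
Of 15 other measured textbook targets, 2 were at least 2-fold lower in each subclone than in the parental line and 0 higher, where all genes gave 1.82% and 2.16% lower and 4.90% and 5.33% higher. EPHB3, an ephrin receptor of the intestinal crypt, had 2.26, 0.666 and 0.300 RPKM (43, 13 and 6 reads). It reached a mean of 1 RPKM only through the parental line. It could therefore count only as lower, here and in the counts over all lists. TBX3, a repressor that mediates β-catenin effects in liver tumours, had 9.12, 2.93 and 3.87 RPKM, at 0.321 (0.239 to 0.427) and 0.424 (0.326 to 0.548) times the parent. CCND1, the cyclin often cited as a target, was at 78.2, 82.0 and 88.9 RPKM, and was named after its values were seen. EPHB3 and TBX3 were thus lower in the subclones, as LGR5 and AXIN2 were, while DKK1 and CCND1 were not. Short of 2-fold, MYC (0.620 and 0.617 times the parent), SOX4 (0.604 and 0.664) and FOSL1 (0.621 and 0.635) were lower in both beyond counting error. EPHB2 (1.39 and 1.57 times), PPARD (1.42 and 1.43) and VEGFA (1.72 and 1.34) were higher in both beyond it. These genes were also named after their values were seen. Of 8 pericentral liver genes, only GLUL and OAT had a mean of at least 1 RPKM. GLUL, the glutamine synthetase of pericentral hepatocytes, had 29.9 RPKM in the parental line, 19.0 in subclone 1 and 29.3 in subclone 2, and OAT had 15.2, 16.8 and 19.5 RPKM, both named after their values were seen.

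**Figure D3:**
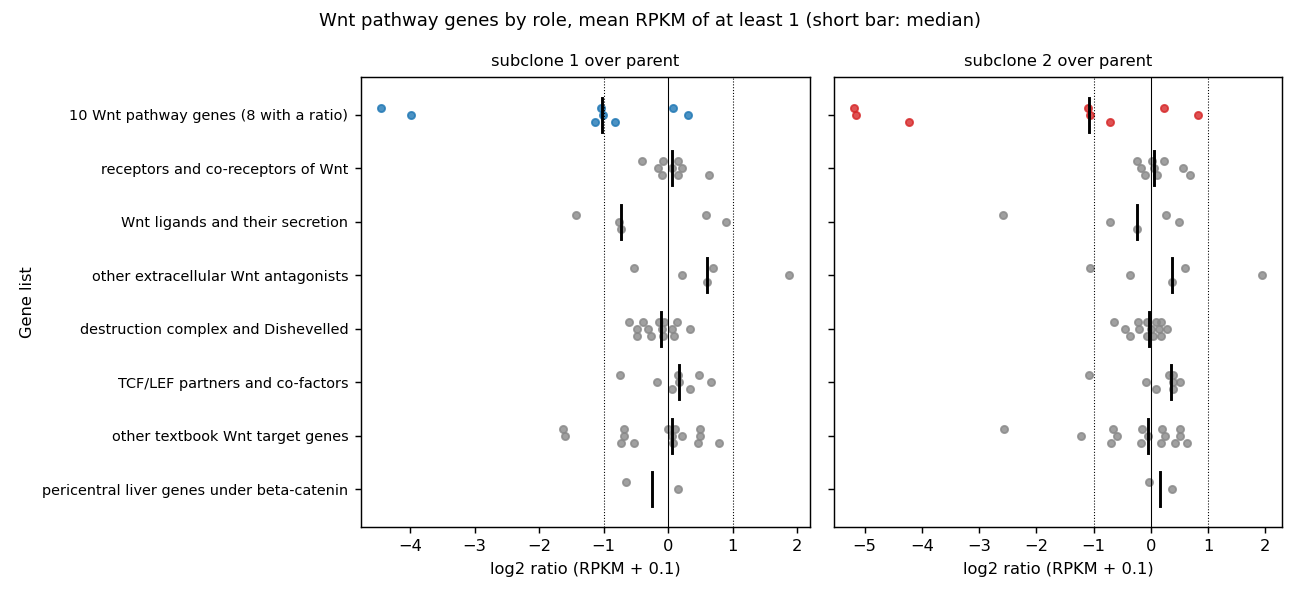
Log2 ratios over the parent for the 8 genes with a ratio (coloured) and for other Wnt pathway genes with a mean of at least 1 RPKM by role (grey), where each dot is a gene and the short bar is the median. The coloured median lies near -1 in both panels, beside medians from -0.73 to 0.60 for the other lists.

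The neighbours of the genes on their chromosomes were compared next, as the 10 nearest genes on each side with a mean of at least 1 RPKM in the RefSeq order. SOST, RNF43 and AXIN2 lie on chromosome 17, LGR5 on 12, LGR4 on 11, ZNRF3 on 22, DKK1 on 10 and NKD1 on 16. The median log2 ratio of the 20 neighbours lay between -0.16 and 0.16 for all 8 genes in subclone 1 over the parent and between -0.05 and 0.16 in subclone 2. The 3 genes on chromosome 17 had 0 neighbours at least 2-fold lower in either subclone, and the whole chromosome had medians of 0.040 and 0.087. Among all genes, 1.82% were at least 2-fold lower in subclone 1 and 2.16% in subclone 2. Counts of 0 or 1 among 20 neighbours are near these shares. The nearest neighbours of SOST, ETV4 and DUSP3, had log2 ratios of -0.87 and 0.23 in subclone 1 and of -0.23 and -0.05 in subclone 2.
LGR5 had 1 lower neighbour of 20, KCNMB4, with 37, 6 and 5 reads in the parental line, subclone 1 and subclone 2. The gene next to LGR5, TSPAN8, went the opposite way, with 15.8 RPKM in the parental line, 49.0 in subclone 1 and 101 in subclone 2. NKD1 also had 1, the homeobox gene IRX5, with 3.86, 1.57 and 1.43 RPKM. These 5 neighbours were named after their values were seen.

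**Figure D4:**
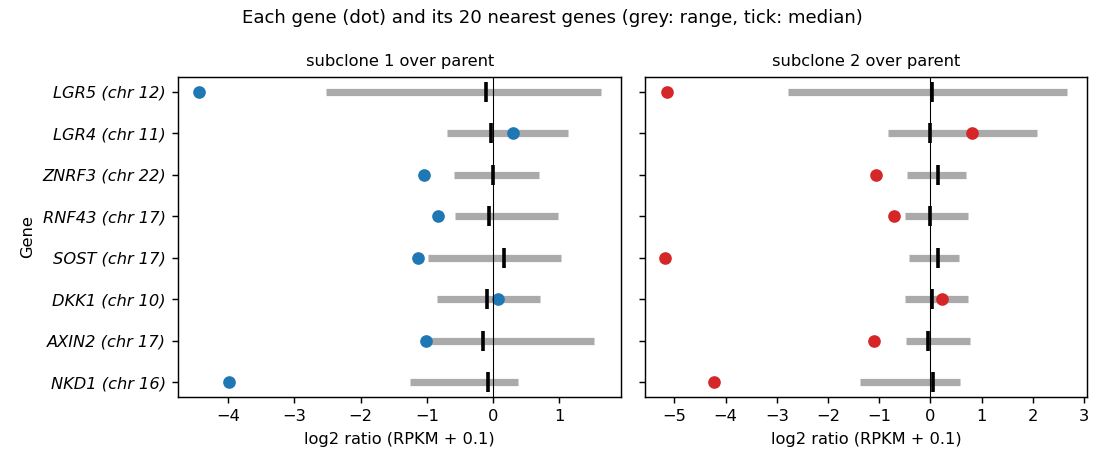
Log2 ratios over the parent of each gene (dot) with the range (grey bar) and the median (black tick) of its 20 nearest genes with a mean of at least 1 RPKM. LGR5, NKD1, ZNRF3, RNF43, SOST and AXIN2 lie to the left of all their 20 neighbours in both panels. They were at or below percentile 4.82 of all genes, so this position is largely expected beside any 20 genes. The margin was small for AXIN2 in subclone 1, at -1.005 beside -0.948 for its lowest neighbour.

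Genes whose 2 log2 ratios over the parent came nearest to those of LGR5, by Euclidean distance over the 2 ratios, were SNORA24, SCARNA27, NKD1, CD33 and SNORD32A at distances of 0.68 to 1.49. Of these the 3 small RNAs had 1 or 2 reads in all and so carry no information, which leaves NKD1 (distance 1.03) and CD33, with 29, 0 and 1 reads, as the genes nearest to LGR5. Nearest to SOST were RNU105A, SCARNA16, MIR663, SOX18 and PRKCB, at distances of 0.35 to 0.69, of which the first 3 had at most 3 reads in any library. SOX18 had 45, 16 and 1 reads and PRKCB had 134, 83 and 2 reads in the order parent, subclone 1 and subclone 2. Likeness over 3 libraries describes these values alone.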

How the data were processed

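RNA of 3 cultured lines (parent, subclone 1, subclone 2; 1 library each) was isolated by Trizol, and an Illumina TruSeq kit was used for the libraries. The authors deposited RPKM per gene with Entrez number and symbol. Per the labels, the build was hg19. The aligner, counter, annotation and handling of strand and shared reads were not given in the sources used here. Library totals came from the common step of the 400 lowest parental RPKM (93.0% whole within 0.01) and from the most frequent ratio of RPKM between libraries. The parental total was searched within a fixed range, and a whole divisor of it outside that range would also give whole steps. With this total, the lengths of all listed members but LGR5 and NKD1 were within 10% of a GENCODE transcript. Reads were the smallest whole numbers that gave all 3 RPKM, which can understate them and widen intervals. RPKM intervals were exact Poisson and ratio intervals exact Clopper-Pearson, at 95%. No test between lines was possible with 1 library each. The recovery was tested on simulated data. There the total was searched in a narrower range, set around the known one, so the simulation says little on finding an unknown total. The members and lists were chosen with earlier results of these data known. Named by rule besides the 10 members were list genes with a mean of at least 1 RPKM and a 2-fold change in any comparison (at most 4 per list), CTNNB1, APC, AXIN1, TCF7, TCF7L1 and TCF7L2, and the 5 genes nearest to LGR5 and to SOST. Single cell type markers, and genes said above to be named after their values were seen, fall outside this rule. Genes were matched by symbol, then by Entrez number to RefSeq. Transcript lengths came from GENCODE 29. Alternatives were other pseudocounts, scalings, filters and folds. Python 3.11.15, numpy 2.4.6, pandas 2.3.3, scipy 1.17.1 and matplotlib 3.10.9 were used.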

Additional observations from a re-analysis of the deposited data

Results flagged for a closer look

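MMP7, a matrix metalloproteinase and textbook Wnt target, differed in direction between the subclones: it had 288 RPKM in the parent, 199 in subclone 1 (0.690 times the parent, 0.637 to 0.748) and 408 in subclone 2 (1.42 times, 1.33 to 1.52). Subclone 2 over subclone 1 gave a log2 ratio of 1.04, and the difference was not tested between lines, as each had 1 library.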

How the results depend on the processing

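No alternative turned the direction of a member ratio whose counting interval excluded equal levels. Of 192 member ratios under 8 alternatives, 186 stayed within their counting interval, and the other 6, all of LGR5, NKD1 or SOST, left it with a pseudocount of 1, which shrinks ratios of low RPKM (SOST in subclone 2 over the parental line went from -5.18 to -3.70). In subclone 1 over the parental line, members at least 2-fold lower numbered 5 as reported, 3 with a pseudocount of 1, 4 with upper-quartile scaling, where AXIN2 had a log2 ratio of -0.98, and 3 of 6 members with a mean RPKM of at least 5, which leaves out LGR5 and NKD1. In subclone 2 over the parental line that filter also gave 3 in place of 5. At 1.5-fold, 1 member (LGR4) was higher in subclone 2 than in the parental line, and 2 were lower in subclone 2 than in subclone 1. Keeping SP5 in, an alternative added after the data were seen, gave 6 lower members in each subclone. The median of the members in subclone 2 over subclone 1 changed sign with ACTB (0.063), GAPDH (0.055) or the filter at 5 (0.047), and DKK1 in subclone 1 over the parental line did so with ACTB (-0.06), as did AXIN2 (0.03 and 0.02) and ZNRF3 (0.10 and 0.09) in subclone 2 over subclone 1 with ACTB and GAPDH, where the member intervals include equal levels.
Among all genes, subclone 1 over the parental line gave counts of 557 (higher) and 207 (lower), subclone 2 over the parental line 606 and 246, and subclone 2 over subclone 1 161 and 158. They became 347 and 117, 380 and 150, and 80 and 77 with a pseudocount of 1. Without a filter they became 1523 and 884, 1553 and 941, and 842 and 902, with the filter at 5 they became 233 and 71, 253 and 93, and 43 and 46, and at 1.5-fold 1317 and 848, 1444 and 830, and 540 and 467. With ACTB, subclone 1 over the parental line gave 449 higher genes and 328 lower ones, a share of higher genes of 57.8% in place of 72.9%, and for subclone 2 over subclone 1 the share went from 50.5% to 63.9% with ACTB and 62.6% with GAPDH. No paired analysis was possible because each line has 1 library, and no library could be left out. Depth allowed no ratio for SP5 and LEF1, and left wide intervals for LGR5 and NKD1, whose smallest whole reads were 2 and 1, and 6 and 5, in the subclones.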
